A study of Mus musculus with 21 samples.

Results

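The genes described here carry the names of the nuclear-encoded part of the mitochondrial respiratory chain, that is of the subunits of complexes I to V. They were picked by a rule on symbols that used no measured value, but the rule was set with earlier results of these data known. The rule took symbols starting with Ndufa, Ndufb, Ndufc, Ndufs or Ndufv, the Sdha to Sdhd genes, symbols starting with Uqcr, Cyc1, symbols starting with Cox4 to Cox8, and symbols starting with Atp5, with pseudogene names left out. This gave 94 of the 37734 genes in the files. Of these, 85 carry subunit names, among them Atp5l2, which the annotation lists as a processed pseudogene and which the rule kept because its symbol does not say so, and 9 are matched by name only and encode assembly factors or related proteins (Ndufaf1 to Ndufaf7, Atp5s and Atp5sl), which were counted apart. Ndufa4 carries a complex I name and was counted there, although its product is known as a subunit of complex IV.

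RNAseq was performed on conventional dendritic cells (cDCs) FACS-sorted from untreated C57BL/6 mice aged 6 to 8 weeks, and each library was made from pooled animals. There were 6 groups. Immature cells, negative for CCR7 and Esam, were cDC1 from the spleen (SP1Minus), cDC2 from the spleen (SP2Minus), cDC1 from the thymus (TH1Minus) and cDC2 from the thymus (TH2Minus). Mature cells, positive for CCR7 and Esam, were sorted from the thymus as cDC1 (TH1Plus) and cDC2 (TH2Plus). The cDC1 gate was CD11c+ CD24+ CD11b- and left out F4/80+, Ly6g+, Ly6c+, DX5+ and B220+ cells, whereas the cDC2 gate was CD11c+ CD11b+ CD24- and left out B220+ cells. The groups held 4 (SP1Minus, TH1Minus) or 3 samples. In SP1Minus replicates 1 and 4 and in TH1Minus replicates 3 and 4 carried the same number in their labels, read here as the pool of mice. So read, 4 samples stand for 3 pools there. TH1Minus replicates 3 and 4 shared index and lane too, yet differed more than any other pair of that group, so that their common origin is uncertain. P-values measure the spread between these samples, whether of different pools or of 1 pool. Values are read counts normalized by the authors with 1 size factor per library, and 14266867 to 40119669 reads per library stood behind them. Summed over Xcr1, Clec9a, Irf8 and Cadm1, the cDC1 markers reached 76765 to 90478 in the immature cDC1 libraries and 2250 to 4053 in the immature cDC2 libraries. In mature cells they reached 35629 to 38108 in TH1Plus and 11056 to 17359 in TH2Plus. Of these 4 markers, 1 was called higher and 3 lower in TH2Plus than in TH2Minus, so that the higher sum rested on 1 gene. The cDC2 markers Sirpa, Irf4, Itgam and Cd209a summed to 321 to 3336 in the immature cDC1 and 37116 to 45021 in the immature cDC2 libraries, and to 2109 to 3604 in TH1Plus, with Itgam at 0 in each sample, and 13915 to 17539 in TH2Plus. The summed markers of the own subset were thus lower in mature than in immature libraries. Of the 4 cDC2 markers, 2 were called higher and 2 lower in TH1Plus than in TH1Minus. Summed over Ccr7, Fscn1, Ccl22 and Cd80, the maturation markers reached 347480 to 518520 in the mature libraries and 2541 to 30563 in the immature ones.

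The respiratory chain passes electrons from NADH (complex I) and succinate (complex II) through ubiquinone and complex III to cytochrome c and oxygen (complex IV), and complexes I, III and IV pump protons out of the matrix as they do so. Complex V, the ATP synthase, lets the protons back in to make ATP. All complexes but complex II combine subunits encoded in the nucleus with a few encoded in the mitochondrial genome. In dendritic cells, activation by microbial products is known for a shift of metabolism from respiration towards glycolysis.

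Among the 94 genes, 89 reached a normalized read count of 10 in 3 samples or more and were tested, namely 80 subunits and all 9 assembly factors. The 80 subunits were 37 of complex I, 4 of complex II, 9 of complex III, 14 of complex IV and 16 of complex V. The other 5 were Ndufa4l2, Cox4i2, Cox7b2, Cox8b and Cox8c, the paralogs of subunits that are used in particular tissues, and none of them exceeded 4.89 in any sample. Thus these cDCs carried transcripts for every complex.

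The level of the subunit transcripts was first examined by complex. Summed over all subunits, the normalized read count was 153520, 140050, 174960 and 172490 in SP1Minus, 161110, 192140, 248800 and 154640 in TH1Minus, and 130700, 140970 and 153330 in TH1Plus. It was 144910, 107370 and 117670 in SP2Minus, 156110, 160180 and 191860 in TH2Minus, and 161150, 177540 and 130870 in TH2Plus. The 3 splenic cDC2 samples were below all thymic immature samples, and TH1Minus replicate 3 stood apart at the top, with TH1Minus replicate 4 of the same pool number the lowest of its group. As a share of all nuclear-encoded reads, the subunits made up on average 0.720% in SP1Minus, 0.821% in TH1Minus, 0.501% in TH1Plus, 0.534% in SP2Minus, 0.783% in TH2Minus and 0.582% in TH2Plus. For 50 of the 80 subunits (62.5%) the highest group mean was that of TH1Minus, against 15.2% of all genes tested. The lowest was that of SP2Minus for 38 subunits (47.5%, against 16.5% of all genes) and that of TH1Plus for 31 (38.75%, against 30.3%).

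The sums of the complexes did not move alike. The complex I sum was 44865 ± 11122 (SD, n = 4) in TH1Minus and 29345 ± 1719 (SD, n = 3) in TH1Plus, and 40981 ± 4387 (SD, n = 3) in TH2Minus and 32572 ± 4273 (SD, n = 3) in TH2Plus. The complex V sum was 76592 ± 15718 (SD, n = 4) in TH1Minus and 49376 ± 5590 (SD, n = 3) in TH1Plus. In contrast, the complex IV sum was 35149 ± 9946 (SD, n = 4) in TH1Minus and 37244 ± 3085 (SD, n = 3) in TH1Plus, and 31476 ± 4350 (SD, n = 3) in TH2Minus and 39332 ± 8092 (SD, n = 3) in TH2Plus. Hence the complex I, II and V sums of the mature cDC1 lay below every immature thymic cDC1 sample, while the complex III and IV sums overlapped between the mature and immature cDC1. These overlaps do not mean that most subunits kept their level. In cDC1, 7 of 9 complex III subunits were called lower and 1, the abundant Uqcrh, higher. Of 14 complex IV subunits tested, 5 were called lower and 1, Cox5a, higher. Sums without Uqcrh or Cox5a were not examined. In bulk samples such as these, fewer cells of a type and less RNA per cell cannot be told apart.

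**Figure D1:**
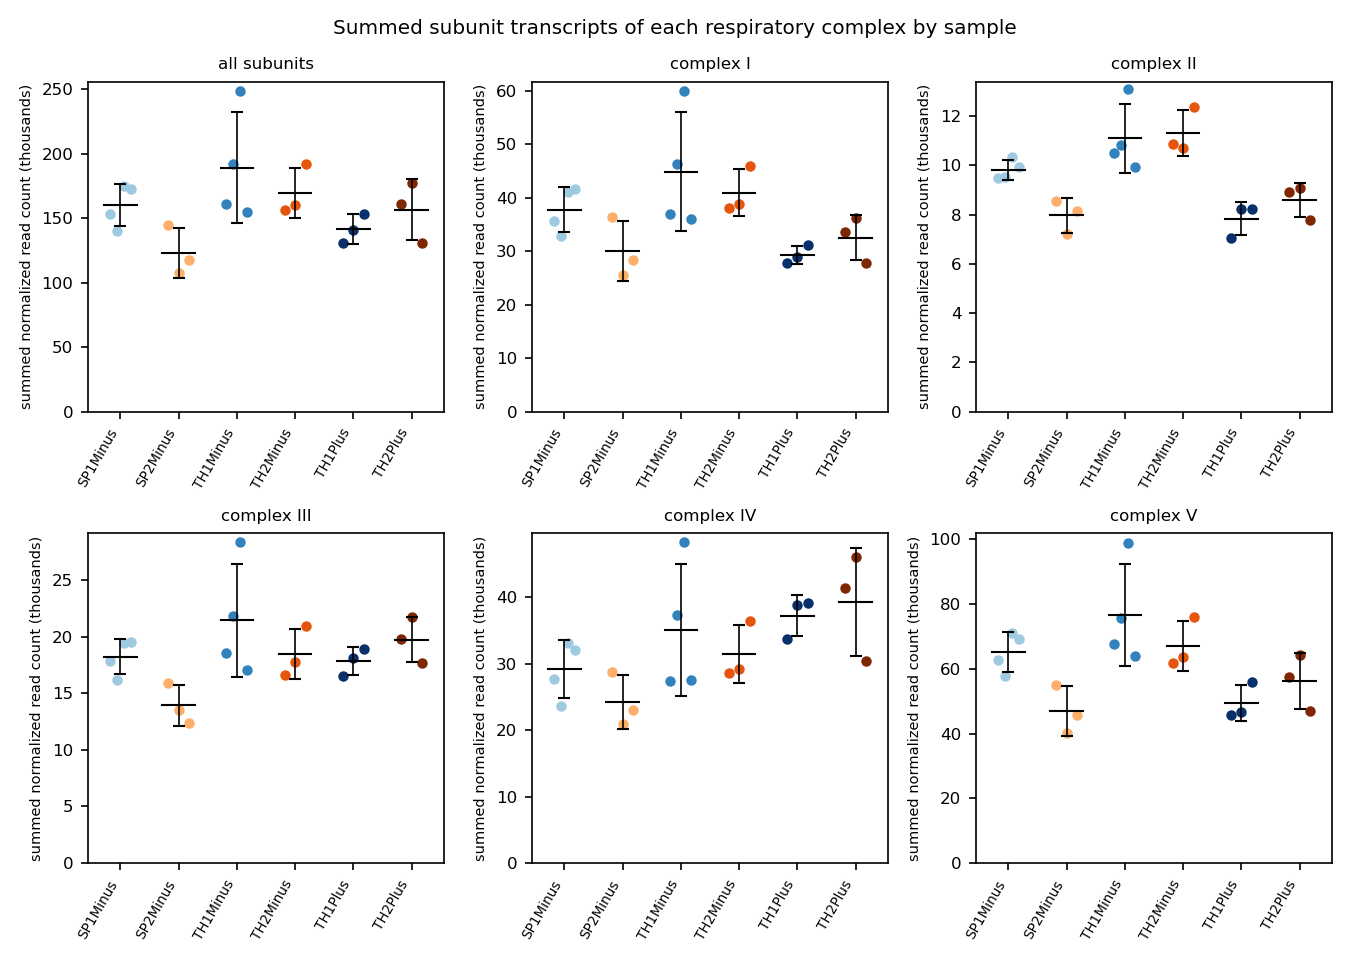
Summed normalized read count (y axis, in kilo-reads) of all 80 tested subunits and the untested ones, and of each complex, in the 6 groups (x axis); points are samples and the black line and bar are the mean ± SD. The complex I sums of TH1Plus (27843 to 31219) sit below those of TH1Minus (36016 to 59998), and the complex IV sums of the same groups overlap.

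Maturation in the thymus was examined next, by comparing mature with immature cells in each subset. In cDC1, 6 subunits rose and 47 fell out of 80 at an adjusted p below 0.1 (limma on log2(value + 1), Benjamini-Hochberg adjustment over 14970 genes). Over all genes tested 30.4% rose and 33.7% fell, so that 64.1% were called in this comparison. In cDC2, 7 subunits rose and 30 fell, with 27.7% of all genes rising, 25.5% falling and 53.2% called. The median log2 fold change of the 80 subunits was -0.57 in cDC1 and -0.29 in cDC2, whereas that of all genes was -0.04 and 0.04. Both comparisons are between different libraries, and 28 subunits fell in both subsets, which is 28 of the 47 that fell in cDC1 and 28 of the 30 that fell in cDC2. A further 3 rose in both, 21 were called in neither, and 0 were called in opposite directions. The shares of all genes that fell, rose or were uncalled in both subsets were not computed. The counts shared between the subsets are therefore no result about the subunits. Mature and immature samples did not overlap for 42 of 80 subunits in cDC1 and for 38 in cDC2, and over all genes tested this held for 55.3% and 60%, so that these counts are no result about the subunits. Leaving out each sample in turn, 33 of the 47 and 16 of the 30 falls were called in every fit. Of the 89 genes, 59 (8 up, 51 down) were called in cDC1 with all samples, 49 (10 up, 39 down) without TH1Minus replicate 3 and 44 (5 up, 39 down) without TH1Plus replicate 1. In cDC2 29 were called without TH2Plus replicate 3 and 28 without TH2Minus replicate 3, against 41 (7 up, 34 down) with all samples. These numbers moved with the scaling of the libraries. Rescaled by the upper quartile, which moved the median of all genes by 0.17 in cDC1 and 0.12 in cDC2 on the log2 scale, 13 of the 89 rose and 38 fell in cDC1, and 9 rose and 22 fell in cDC2. Rescaled to the nuclear-encoded total, which moved it by -0.28 and -0.30, 4 rose and 65 fell in cDC1, and 5 rose and 47 fell in cDC2. Relative to the median of all genes, the median of the 89 genes ran from -0.54 to -0.51 in cDC1 under these scalings, and from -0.34 to -0.33 in cDC2.

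By complex, complex I had 24 of 37 subunits falling and 3 rising in cDC1 (median log2 fold change -0.79), and 17 falling and 1 rising in cDC2 (median -0.47). Complex II had 3 of 4 falling in each subset, with medians of -0.75 and -0.48. Of 9 complex III subunits, 7 fell and 1 rose in cDC1 and 1 fell and 1 rose in cDC2, with medians of -0.58 and -0.34. The complex III median in cDC2 ran from -0.45 to 0.11 when 1 sample was left out. Of 16 complex V subunits, 8 fell and 1 rose in cDC1 and 6 fell and 1 rose in cDC2, with medians of -0.43 and -0.18. Complex IV had 5 of 14 subunits falling and 1 rising in cDC1, 3 falling and 4 rising in cDC2, and medians of -0.23 and -0.07.

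**Figure D2:**
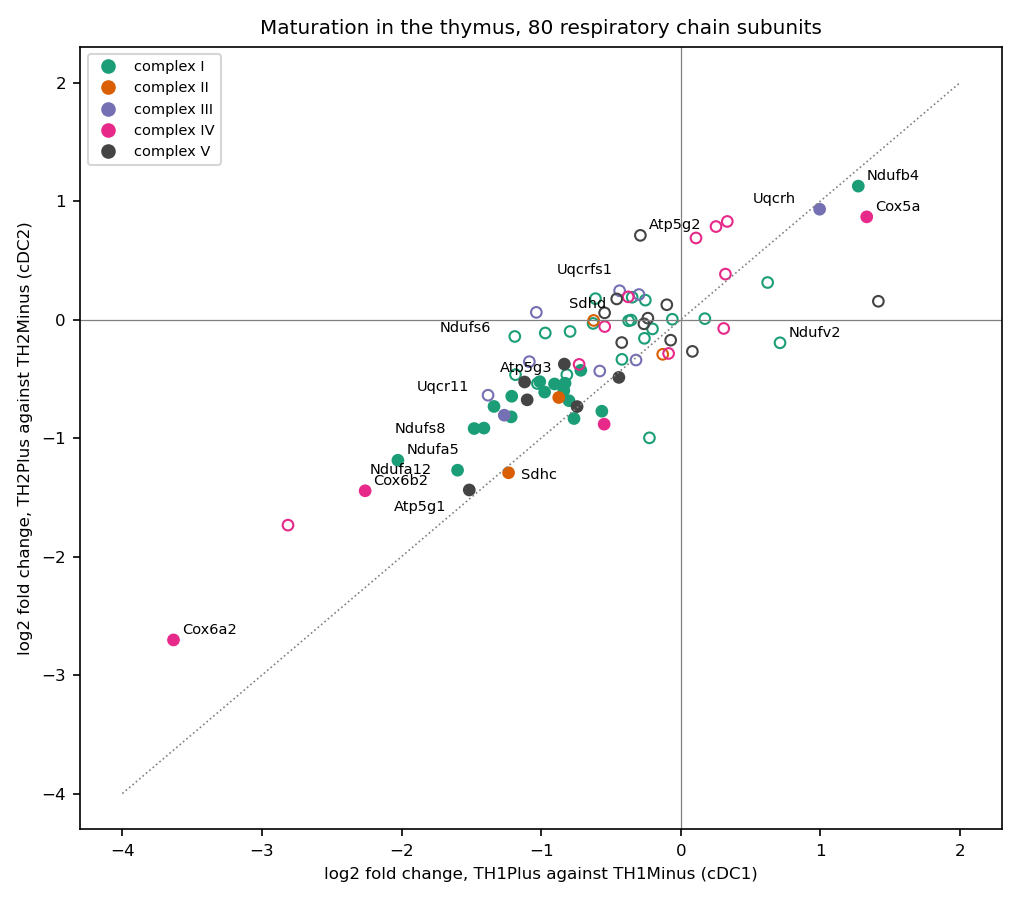
Log2 fold change of each of the 80 tested subunits in mature against immature thymic cDC1 (x axis) and cDC2 (y axis), coloured by complex; filled points were called at an adjusted p below 0.1 in both subsets, open points were not, and the dotted line marks equal changes. The 28 filled points at the lower left fell in both subsets, and the 3 at the upper right (Ndufb4, Cox5a and Uqcrh) rose in both.

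Complex I is built of an electron-input (N) module that oxidizes NADH, a quinone-site (Q) module and a membrane arm that pumps protons. In the N module 6 of 9 measured subunits fell in cDC1 and 3 in cDC2, in the Q module 5 and 3 of 7, and in the membrane arm 11 and 9 of 19. Ndufa12, an accessory subunit of the N module, measured 688, 962, 1228 and 724 in TH1Minus and 249, 314 and 307 in TH1Plus. In cDC2 it measured 555, 636 and 808 in TH2Minus and 273, 313 and 236 in TH2Plus. Mature samples were below every immature sample in both subsets, with log2 fold changes of -1.60 (SE 0.20, adjusted p = 6.53e-07, limma) and -1.27 (SE 0.21, adjusted p = 4.53e-05, limma). Ndufs8, which holds iron-sulfur clusters in the Q module, measured 1154, 1579, 1982 and 1046 in TH1Minus against 531, 432 and 542 in TH1Plus. It measured 1065, 1223 and 1322 in TH2Minus against 703, 725 and 498 in TH2Plus. Again no mature sample reached the immature range, and Ndufs8 fell by 1.48 on the log2 scale (SE 0.21, adjusted p = 3.6e-06, limma) in cDC1 and by 0.92 (SE 0.22, adjusted p = 0.00183, limma) in cDC2.

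The same was found for the accessory Q module subunits Ndufa5 and Ndufa9. Ndufa5 measured 291, 344, 687 and 565 in TH1Minus, 138, 114 and 80.0 in TH1Plus, 469, 372 and 558 in TH2Minus, and 193, 269 and 157 in TH2Plus. Its log2 fold changes were -2.03 (SE 0.31, adjusted p = 9.02e-06, limma) in cDC1 and -1.19 (SE 0.33, adjusted p = 0.0051, limma) in cDC2. Ndufa9 fell by 1.41 (SE 0.17, adjusted p = 3.51e-07, limma) and by 0.92 (SE 0.18, adjusted p = 0.000245, limma). Among the core subunits, Ndufs1, the largest iron-sulfur subunit, fell by 0.77 (SE 0.16, adjusted p = 0.000331, limma) and by 0.84 (SE 0.17, adjusted p = 0.000394, limma). Ndufv1, the NADH-binding subunit, fell by 1.21 (SE 0.27, adjusted p = 0.000558, limma) in cDC1 and by 0.65 (SE 0.28, adjusted p = 0.0682, limma) in cDC2, the second call being lost without TH2Minus replicate 2 (adjusted p = 0.141), TH2Minus replicate 3 (0.215) or TH2Plus replicate 3 (0.253). Ndufs7 fell in cDC1 by 0.82 (SE 0.38, adjusted p = 0.0717, limma), which was lost in 4 of 7 fits that left out 1 sample, with adjusted p up to 0.197.

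Against this trend, Ndufb4, an accessory subunit of the membrane arm, rose in both subsets. It measured 160, 197, 314 and 223 in TH1Minus and 612, 499 and 474 in TH1Plus, and 250, 218 and 296 in TH2Minus and 597, 524 and 538 in TH2Plus. The mature samples were all above the immature thymic samples, and the log2 fold changes were 1.27 (SE 0.22, adjusted p = 3.73e-05, limma) and 1.13 (SE 0.23, adjusted p = 0.000414, limma). Ndufv2, an N module subunit, rose in cDC1 by 0.71 (SE 0.17, adjusted p = 0.00125, limma), from 1481, 1501, 2197 and 1313 to 2879, 2840 and 2158, with TH1Plus replicate 3 within the immature range. In cDC2 it measured 1861, 1548 and 2171 before and 1666, 1489 and 1676 after maturation, a log2 fold change of -0.20 (SE 0.18, adjusted p = 0.405, limma). The difference between the effects was itself called, at -0.91 (SE 0.25, adjusted p = 0.0193, limma), and was called in each of the 13 fits that left out 1 sample. Ndufb9 was also called higher in cDC1, at 0.62 (SE 0.31, adjusted p = 0.0927, limma), but in 4 of 7 such fits the call was lost, with adjusted p up to 0.39, and its exons overlap another annotated gene on the same strand.

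Of the 7 complex I assembly factors, which build the complex and do not stay in it, 4 fell in each subset. Ndufaf6 measured 300, 286, 340 and 307 in TH1Minus and 70.0, 81.5 and 15.2 in TH1Plus, and 122, 114 and 162 in TH2Minus and 40.7, 52.9 and 60.4 in TH2Plus. Ndufaf4 measured 337, 339, 309 and 344 in TH1Minus and 60.8, 78.0 and 52.0 in TH1Plus, and 363, 461 and 375 in TH2Minus and 123, 104 and 144 in TH2Plus. The groups were separate for both genes. The log2 fold change of Ndufaf6 was -2.76 (SE 0.39, adjusted p = 4.26e-06, limma) in cDC1 and -1.35 (SE 0.42, adjusted p = 0.0114, limma) in cDC2, and that of Ndufaf4 was -2.39 (SE 0.27, adjusted p = 2.19e-07, limma) and -1.69 (SE 0.29, adjusted p = 6.81e-05, limma). Ndufaf7, a methyltransferase needed for complex I assembly, fell by 0.94 (SE 0.18, adjusted p = 0.000182, limma) and by 1.57 (SE 0.20, adjusted p = 1.4e-06, limma). Ndufaf5 fell by 0.57 and 0.59, with adjusted p of 0.0309 and 0.0439 by limma, and its calls were lost without TH1Plus replicate 3 (adjusted p = 0.186) in cDC1 and without TH2Minus replicate 2 (0.134) or TH2Plus replicate 1 (0.131) in cDC2. Ndufaf1, Ndufaf2 and Ndufaf3 were not called in either subset. Of the genes with complex V names, Atp5s rose in cDC1 by 0.71 (SE 0.29, adjusted p = 0.0412, limma) and Atp5sl by 0.56 (SE 0.20, adjusted p = 0.022, limma), calls that were lost without TH1Plus replicate 1 (adjusted p = 0.109) and TH1Plus replicate 2 (0.109).

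In complex II, the enzyme that couples the tricarboxylic acid cycle to the chain, both catalytic and anchor subunits were affected. Sdhb, the iron-sulfur subunit, measured 2120, 2367, 2988 and 2297 in TH1Minus and 1147, 1504 and 1335 in TH1Plus, and 1770, 1726 and 2031 in TH2Minus and 1260, 1244 and 1007 in TH2Plus. Sdhc, a membrane anchor that helps bind quinone, measured 1359, 1286, 1983 and 1419 against 437, 837 and 692 in cDC1, and 1825, 1650 and 2112 against 874, 945 and 522 in cDC2. For both genes each mature sample was below each immature one of its subset. Sdhb fell by 0.87 (SE 0.15, adjusted p = 4.47e-05, limma) and 0.66 (SE 0.16, adjusted p = 0.00208, limma), and Sdhc by 1.23 (SE 0.22, adjusted p = 7.78e-05, limma) and 1.29 (SE 0.24, adjusted p = 0.000147, limma). The flavoprotein Sdha fell in cDC2 by 0.29 (SE 0.13, adjusted p = 0.064, limma), a call lost without TH2Minus replicate 1 (adjusted p = 0.109), TH2Minus replicate 3 (0.177) or TH2Plus replicate 3 (0.184), and measured -0.13 (SE 0.12, adjusted p = 0.365, limma) in cDC1.

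Sdhd, the other membrane anchor, was set apart by the subset. It measured 2169, 2295, 2979 and 2276 in TH1Minus and 1429, 1580 and 1691 in TH1Plus. In cDC2 it measured 2198, 2388 and 2813 in TH2Minus and 2431, 2513 and 2380 in TH2Plus. The mature cDC1 samples were all below the immature ones, whereas the cDC2 samples overlapped. Sdhd fell by 0.62 (SE 0.13, adjusted p = 0.000446, limma) in cDC1 and changed by -0.01 (SE 0.14, adjusted p = 0.974, limma) in cDC2. The difference between these effects was 0.62 (SE 0.20, adjusted p = 0.0428, limma) and was called in all fits that left out 1 sample except that without TH2Minus replicate 1 (adjusted p = 0.124).

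In complex III, the core protein Uqcrc1 fell in both subsets. It measured 2614, 2718, 3789 and 2121 in TH1Minus and 763, 1161 and 1687 in TH1Plus, and 2577, 2679 and 3436 in TH2Minus and 1985, 1899 and 1174 in TH2Plus, so that mature and immature samples were separate. The log2 fold changes were -1.26 (SE 0.29, adjusted p = 0.000903, limma) and -0.81 (SE 0.31, adjusted p = 0.0394, limma), the second being lost without TH2Minus replicate 3 (adjusted p = 0.137) or TH2Plus replicate 3 (0.192). Cyc1, the cytochrome that hands electrons to cytochrome c, fell in cDC1 by 1.09 (SE 0.27, adjusted p = 0.00198, limma) and measured -0.36 (SE 0.29, adjusted p = 0.346, limma) in cDC2. Uqcr11, a small accessory subunit, fell in cDC1 by 1.38 (SE 0.38, adjusted p = 0.00392, limma). The Rieske iron-sulfur protein Uqcrfs1 and the core protein Uqcrc2 fell in cDC1 by 0.44 (SE 0.17, adjusted p = 0.0318, limma) and 0.30 (SE 0.12, adjusted p = 0.04, limma), but both calls were lost without TH1Minus replicate 3 (adjusted p = 0.102 and 0.117) or without TH1Plus replicate 1 (0.118 and 0.101).

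Uqcrh, the hinge protein that lies beside cytochrome c1, was the exception in this complex and rose. It measured 2580, 3246, 4826 and 2808 in TH1Minus and 6288, 6828 and 6402 in TH1Plus. In cDC2 it measured 3063, 3193 and 3422 before and 5850, 6719 and 5903 after maturation. All mature samples lay above all immature samples, at log2 fold changes of 0.99 (SE 0.22, adjusted p = 0.000736, limma) and 0.93 (SE 0.24, adjusted p = 0.00313, limma).

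Cytochrome c oxidase, complex IV, held a subunit that rose in both subsets. Cox5a, which is found in a single form, measured 1626, 2073, 2880 and 1818 in TH1Minus and 5169, 6041 and 4397 in TH1Plus. In cDC2 it measured 2358, 1689 and 2882 in TH2Minus and 5036, 3713 and 3723 in TH2Plus. No sample of the mature groups fell within the immature range. The log2 fold change was 1.33 (SE 0.21, adjusted p = 1.76e-05, limma) in cDC1 and 0.87 (SE 0.23, adjusted p = 0.00349, limma) in cDC2. Its exons overlap an annotated gene on the other strand, and the strand setting of the counting is not given in the sources used here. Cox7c rose in cDC2 by 0.83 (SE 0.26, adjusted p = 0.012, limma) and Cox7a2l, a paralog of Cox7a2, by 0.69 (SE 0.16, adjusted p = 0.00103, limma). Cox7a2l measured 4046, 4571 and 4441 in TH2Minus and 7130, 8099 and 5952 in TH2Plus, with no overlap. In cDC1 it measured 4558, 4893, 5607 and 3855 before and 4629, 4664 and 5970 after maturation, a log2 fold change of 0.11 (SE 0.15, adjusted p = 0.548, limma). Cox4i1, the regulatory subunit of the complex in its broad form, measured 3626, 3923 and 5058 in TH2Minus and 8116, 9283 and 4886 in TH2Plus. Its groups overlapped at TH2Plus replicate 3, and its change of 0.78 (SE 0.30, adjusted p = 0.0343, limma) lost the call without TH2Minus replicate 1 (adjusted p = 0.111), TH2Plus replicate 1 (0.106) or TH2Plus replicate 2 (0.152). Cox5b was called in neither subset, at -0.55 (SE 0.32, adjusted p = 0.151, limma) and -0.06 (SE 0.34, adjusted p = 0.909, limma).

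The complex IV subunits that fell were Cox7b in both subsets, Cox6a1 in cDC1, and isoforms known from particular tissues (Cox6a2 and Cox6b2 in both subsets, Cox7a1 in cDC1). The Cox6a1 call (-0.73, SE 0.34, adjusted p = 0.0744, limma) was lost in 4 of 7 fits that left out 1 sample, with adjusted p up to 0.231, and that of Cox7a1 (-2.81, SE 1.09, adjusted p = 0.0325, limma) without TH1Plus replicate 1 (0.164) or TH1Plus replicate 2 (0.161). Cox7a1 was near the floor, with 18, 25, 24 and 12 reads in TH1Minus and 0, 0 and 30 in TH1Plus. Its groups overlapped, and its fall rested on the samples at 0. Cox7b fell by 0.55 (SE 0.20, adjusted p = 0.0258, limma) in cDC1 and by 0.88 (SE 0.22, adjusted p = 0.00217, limma) in cDC2, and the cDC1 call was lost without TH1Minus replicate 3 (adjusted p = 0.102) or TH1Plus replicate 1 (0.106). Cox6b2, the form of Cox6b known from testis, was present at low levels of 34.6, 25.0, 78.0 and 21.2 in TH1Minus and 35.0, 1.73 and 3.20 in TH1Plus. It was higher in cDC2, at 235, 228 and 285 in TH2Minus and 92.1, 78.6 and 102 in TH2Plus. It fell by 2.26 (SE 0.61, adjusted p = 0.00341, limma) in cDC1, where TH1Plus replicate 1 lay within the immature range. In cDC2 it fell by 1.45 (SE 0.65, adjusted p = 0.0771, limma), but that call was lost in each of the 6 fits that left out 1 sample, with adjusted p from 0.111 to 0.169. Cox6a2, the form known from muscle, did not exceed 41.5 in any sample, and the groups were separate in both subsets, with 6.76 to 23.4 in TH1Minus and 0 to 0.799 in TH1Plus.

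In complex V, the ATP synthase, the catalytic F1 head and the ring of c subunits were affected. Atp5a1 and Atp5b, which form the head, measured 10439 to 14208 and 19122 to 27688 in TH1Minus against 4601 to 7326 and 11101 to 14896 in TH1Plus. They fell by 1.10 (SE 0.18, adjusted p = 2.58e-05, limma) and 0.83 (SE 0.17, adjusted p = 0.000258, limma) in cDC1, without overlap of the groups. In cDC2 Atp5a1 fell by 0.68 (SE 0.19, adjusted p = 0.0067, limma) and Atp5b by 0.38 (SE 0.18, adjusted p = 0.0969, limma), and the Atp5b call was lost in 5 of the 6 fits that left out 1 sample, with adjusted p up to 0.281. Atp5c1, the central stalk, was called in cDC1 at -0.26 (SE 0.13, adjusted p = 0.0882, limma), which was lost in 5 of 7 fits that left out 1 sample, with adjusted p up to 0.28. Atp5o, a peripheral stalk subunit, was called in both subsets at -0.74 (SE 0.29, adjusted p = 0.0356, limma) and -0.73 (SE 0.31, adjusted p = 0.0614, limma). Its exons overlap another annotated gene of the same name on the same strand, so that its reads may be incomplete. By limma, the Atp5o call was lost in cDC1 without TH1Minus replicate 3 (adjusted p = 0.134) or TH1Plus replicate 3 (0.106), and in cDC2 without TH2Minus replicate 1 (0.236), TH2Minus replicate 3 (0.238) or TH2Plus replicate 3 (0.168). Atp5l2, annotated as a processed pseudogene with the name of a membrane subunit, was 1 of the 6 counted as rising in cDC1. It was called higher in cDC1 at 1.41 (SE 0.66, adjusted p = 0.0735, limma), with overlapping groups and a call lost in 4 of 7 such fits.

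The c subunit itself is made from the 3 genes Atp5g1, Atp5g2 and Atp5g3, which are known to encode the same mature peptide behind different import sequences. Atp5g1 measured 1529, 2190, 3405 and 1361 in TH1Minus and 501, 688 and 967 in TH1Plus, and 1609, 1691 and 2229 in TH2Minus and 755, 887 and 454 in TH2Plus. Atp5g3 measured 3621, 4188, 5376 and 3520 in TH1Minus and 1775, 1709 and 2240 in TH1Plus, and 3175, 3404 and 4019 in TH2Minus and 2668, 2897 and 1877 in TH2Plus. In each case the mature samples were below the immature ones. Atp5g1 fell by 1.52 (SE 0.31, adjusted p = 0.000293, limma) and 1.44 (SE 0.33, adjusted p = 0.00128, limma), and Atp5g3 by 1.12 (SE 0.19, adjusted p = 3.02e-05, limma) and 0.53 (SE 0.20, adjusted p = 0.0354, limma), the last call being lost without TH2Minus replicate 3 (adjusted p = 0.137) or TH2Plus replicate 3 (0.203).

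Atp5g2 did not follow. It measured 2068, 2652, 3812 and 1758 in TH1Minus and 1921, 1743 and 2439 in TH1Plus, with a log2 fold change of -0.29 (SE 0.26, adjusted p = 0.361, limma). In cDC2 it measured 1867, 1969 and 2742 in TH2Minus and 4041, 4639 and 2356 in TH2Plus. It was called higher there at 0.71 (SE 0.28, adjusted p = 0.0433, limma), although TH2Plus replicate 3 lay within the immature range and the call was lost without TH2Minus replicate 1 (adjusted p = 0.139), TH2Minus replicate 2 (0.114), TH2Plus replicate 1 (0.133) or TH2Plus replicate 2 (0.192). The call was also lost with a correction for GC content and length, where the log2 fold change was 0.25. Per kilobase of transcript, Atp5g2 made up 33.1% to 41.2% of the Atp5g2 and Atp5g3 total in TH1Minus and 50.2% to 51.8% in TH1Plus, and 36.4% to 40.3% in TH2Minus and 55.4% to 61.3% in TH2Plus. It made up 33.3% to 46.0% in SP1Minus and 48.1% to 52.8% in SP2Minus. Mature samples were thus above all immature thymic samples in this share, which was not tested. Atp5g1 was left out of the share because its annotated coding transcripts run from 596 to 4715 bases, and Atp5g2 has 2 near-identical copies in the genome between which reads could be split.

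**Figure D3:**
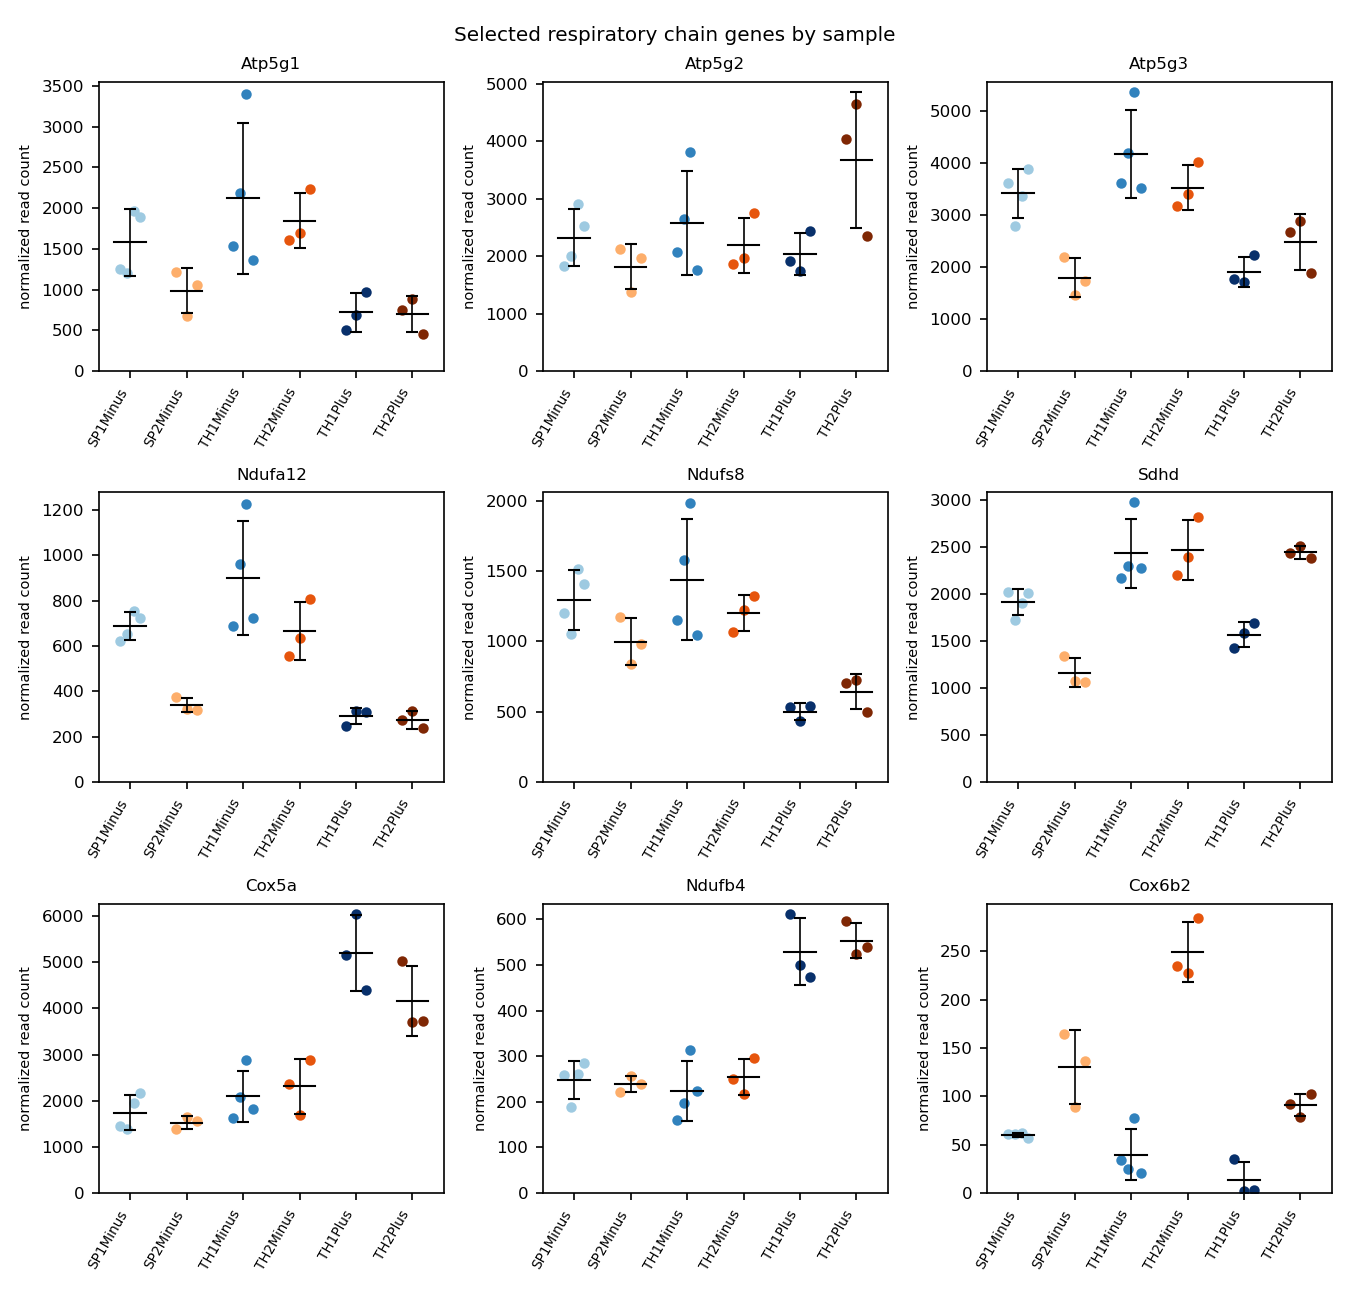
Normalized read count (y axis, from 0) of 9 respiratory chain genes in the 6 groups (x axis); points are samples and the black line and bar are the mean ± SD. The mature samples lie below the immature thymic samples for Atp5g1, Atp5g3, Ndufa12 and Ndufs8 and above them for Cox5a and Ndufb4, while for Sdhd this separation is seen in cDC1 and not in cDC2.

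The promoters of these genes are shown because subunits that move together are known to share binding sequences for the factors NRF1 and the ETS protein GABP. RefSeq windows from 250 bases before to 50 bases after the start (GRCm38.p6) were found for 76 of the 94 genes, and for 66 of the 80 subunits tested (71 windows). The letters searched on both strands were GCGC, any base and TGCGC in a row (NRF1 core), CCGGAAG (ETS core) and AAGATGGC (YY1 core). The NRF1 core was present in 18 of 71 subunit windows (25.4%) and in 4.60% of all 32851 windows of that length, the ETS core in 16 (22.5%) and 8.86%, and the YY1 core in 10 (14.1%) and 2.75%. Among the 25 windows of subunits that fell in both subsets, 6 held the NRF1 core (24%), 3 the ETS core and 4 the YY1 core. The windows of Uqcrc1 (chr9:108936398-108936697, plus strand), which fell in both subsets, Sdhd (chr9:50603800-50604099, minus strand), which fell in cDC1, and Ndufb4 (chr16:37654319-37654618, minus strand) and Uqcrh (chr4:116075021-116075320, minus strand), which rose in both, are given with the matched letters in capitals.
Uqcrc1: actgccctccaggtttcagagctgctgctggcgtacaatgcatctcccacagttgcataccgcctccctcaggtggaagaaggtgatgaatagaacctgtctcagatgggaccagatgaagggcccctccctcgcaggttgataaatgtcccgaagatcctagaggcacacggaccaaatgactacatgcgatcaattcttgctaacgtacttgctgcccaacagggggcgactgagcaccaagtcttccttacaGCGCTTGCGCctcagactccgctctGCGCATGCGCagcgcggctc
Sdhd: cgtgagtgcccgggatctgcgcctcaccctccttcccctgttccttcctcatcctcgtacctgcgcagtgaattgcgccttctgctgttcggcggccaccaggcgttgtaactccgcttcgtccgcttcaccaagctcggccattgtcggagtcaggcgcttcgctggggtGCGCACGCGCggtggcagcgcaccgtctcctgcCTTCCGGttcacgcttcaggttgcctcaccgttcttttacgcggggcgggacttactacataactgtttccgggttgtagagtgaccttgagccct
Ndufb4: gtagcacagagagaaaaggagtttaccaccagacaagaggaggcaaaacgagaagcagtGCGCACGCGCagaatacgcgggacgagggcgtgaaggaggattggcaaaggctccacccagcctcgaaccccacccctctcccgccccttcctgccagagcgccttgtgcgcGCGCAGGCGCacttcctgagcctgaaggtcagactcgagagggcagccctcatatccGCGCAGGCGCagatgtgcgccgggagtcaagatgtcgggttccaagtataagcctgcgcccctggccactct
Uqcrh: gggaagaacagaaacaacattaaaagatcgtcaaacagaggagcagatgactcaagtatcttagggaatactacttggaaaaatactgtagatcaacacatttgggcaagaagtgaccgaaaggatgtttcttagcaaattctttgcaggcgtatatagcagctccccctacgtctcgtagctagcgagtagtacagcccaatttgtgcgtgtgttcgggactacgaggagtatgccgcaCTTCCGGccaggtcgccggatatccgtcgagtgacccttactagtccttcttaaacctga

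Uqcrc1 held the NRF1 core 2 times, Ndufb4 3 times, Sdhd held the NRF1 and the ETS core once each, and Uqcrh held the ETS core once. Among the printed windows the NRF1 core was present in those of Uqcrc1 and Sdhd and in that of Ndufb4. The printed windows were picked by hand, and each held a core, so that they do not stand for the subunits. The window of Cox5a, which also rose in both subsets, held no searched core. Those of Ndufa12 and Cox7b, which fell in both, held none either. Whether a factor binds there, and the part of these letters in the changes, was not tested. Of the factors themselves, Nrf1 measured a log2 fold change of -0.10 in both subsets (SE 0.17 and 0.18, adjusted p = 0.641 and 0.7, limma), and Gabpb1, the second subunit of GABP, rose by 1.41 (SE 0.17, adjusted p = 3.3e-07, limma) and 0.98 (SE 0.18, adjusted p = 0.000112, limma). Both were chosen after their values were seen, and Gabpa, the other subunit of GABP, is not given here. The whole list of regulators, given below, held more falls than rises in both subsets.

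Other genes around the respiratory chain were examined in the same comparisons. The counts of each list, here and in the paragraphs on maturation that follow, stand beside the shares of all genes tested. These were 30.4% rising and 33.7% falling in cDC1, and 27.7% rising and 25.5% falling in cDC2. No list was tested as a set. Of the 13 subunits encoded in the mitochondrial genome, 0 rose in either subset, 4 fell in cDC1 (mt-Nd1, mt-Nd2, mt-Nd4 and mt-Cytb) and 3 in cDC2. mt-Nd1 fell by 0.91 (SE 0.28, adjusted p = 0.00845, limma) and 0.83 (SE 0.30, adjusted p = 0.0273, limma), and the median of the list was 0.39 in cDC1, opposite in sign to its calls, and -0.24 in cDC2. The summed value of the 13 genes, 289880 to 402680 in TH1Minus and 285330 to 308360 in TH1Plus, overlapped between the groups. Of 25 assembly factors of complexes II to V, 8 rose and 13 fell in cDC1 and 8 rose and 9 fell in cDC2. The complex II assembly factor Sdhaf1 rose by 3.54 (SE 0.29, adjusted p = 1.84e-09, limma) and 3.12 (SE 0.31, adjusted p = 7.01e-08, limma), whereas Cox10, which makes the heme A precursor of complex IV, fell by 1.98 (SE 0.25, adjusted p = 1.04e-06, limma) and 1.06 (SE 0.27, adjusted p = 0.00288, limma).

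Of 19 genes of the tricarboxylic acid cycle, 13 fell in each subset, with 0 rising in cDC1 and 1 in cDC2. Idh3a, of the NAD-dependent isocitrate dehydrogenase, changed by -3.76 (SE 0.15, adjusted p = 2.63e-14, limma) and -2.21 (SE 0.16, adjusted p = 5.22e-10, limma), and Fh1, fumarase, by -2.11 (SE 0.14, adjusted p = 9.66e-11, limma) and -2.6 (SE 0.15, adjusted p = 3.87e-11, limma). Of 17 electron carriers and dehydrogenases that feed the chain, 12 fell and 2 rose in cDC1 and 9 fell and 2 rose in cDC2. Cycs, cytochrome c, fell by 2.01 (SE 0.24, adjusted p = 4.62e-07, limma) and 1.28 (SE 0.26, adjusted p = 0.000371, limma). The 2 that rose in both were Etfdh, which delivers electrons from fatty acid oxidation to ubiquinone, by 1.79 and 1.68 (adjusted p = 1.59e-08 and 2.15e-07, limma), and Gpd2, which delivers them from glycerol 3-phosphate, by 1.75 and 1.56 (adjusted p = 9.81e-09 and 2.54e-07, limma).

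Of 10 carriers and channels that use the proton gradient, 4 rose and 5 fell in cDC1 and 5 rose and 2 fell in cDC2. Mcu, the mitochondrial calcium uniporter, rose by 2.57 (SE 0.19, adjusted p = 4.78e-10, limma) in cDC1 and by 1.81 (SE 0.21, adjusted p = 4.21e-07, limma) in cDC2. Slc25a4 rose and Slc25a5 fell, 2 forms of the ADP/ATP carrier, by 1.38 and 1.79 in cDC1 and by 0.83 and 0.88 in cDC2 (adjusted p from 3.02e-08 to 0.00072, limma). Of 16 regulators of mitochondrial biogenesis and mitochondrial DNA transcription, 3 rose and 8 fell in cDC1 and 2 rose and 6 fell in cDC2, and Pprc1, a coactivator of NRF1, fell by 3.41 (SE 0.29, adjusted p = 2.56e-09, limma) and 2.08 (SE 0.31, adjusted p = 1.12e-05, limma). Of 74 mitochondrial ribosomal proteins, 8 rose and 53 fell in cDC1 and 8 rose and 30 fell in cDC2.

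Genes of dividing cells moved with maturation as well. All 12 listed genes of dividing cells fell in both subsets, and their summed value was 39196 to 44814 in TH1Minus and 7305 to 8478 in TH1Plus, and 44794 to 47555 in TH2Minus and 6415 to 8758 in TH2Plus. The 7 tested T lineage markers rose in both subsets, their summed value going from 167 to 220 in TH1Minus to 1404 to 2207 in TH1Plus, and from 194 to 285 in TH2Minus to 762 to 1204 in TH2Plus. None of the 8 T lineage markers listed was at 0 in every mature sample. Markers of plasmacytoid dendritic cells (pDCs) went the other way, with 2 of 3 tested falling in cDC1, from summed values of 1097 to 1585 in TH1Minus to 216 to 300 in TH1Plus, where Klk1 was at 0 in each sample, and with 2 falling and 1 rising in cDC2, from 1314 to 1808 in TH2Minus to 210 to 429 in TH2Plus. Of 4 thymic epithelial markers, 1 rose and 1 fell in cDC1 and 2 rose and 1 fell in cDC2, while their summed value was 565 to 704 in TH1Minus, 253 to 506 in TH1Plus, 3480 to 3805 in TH2Minus and 565 to 901 in TH2Plus. Of 5 tested macrophage markers, 1 rose and 2 fell in cDC1, and their summed values overlapped between immature and mature cells in both subsets (160 to 379 and 79.7 to 445 in cDC1, 4849 to 7942 and 1657 to 13674 in cDC2). The part of these lists in the respiratory chain result was not tested.

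The study design also allowed a comparison of the thymus with the spleen in immature cells. In cDC2, 33 of 80 subunits were higher in the thymus and 0 lower, where 14.9% of all genes were higher and 11.6% lower (26.5% called). The median log2 fold change was 0.54 over the subunits and 0.02 over all genes. By complex, 13 of 37 subunits of complex I, 3 of 4 of complex II, 2 of 9 of complex III, 6 of 14 of complex IV and 9 of 16 of complex V were higher, with medians of 0.47, 0.70, 0.51, 0.60 and 0.55. Samples of the groups did not overlap for 39 of the 80, which held for 39.3% of all genes. Of the 33 subunits, 14 were called in every fit that left out 1 sample, and of the 89 genes 34 were called with all samples, 18 without SP2Minus replicate 3 and 17 without TH2Minus replicate 3.

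Sdhd was the subunit with the smallest adjusted p. It measured 1337, 1075 and 1066 in SP2Minus and 2198, 2388 and 2813 in TH2Minus, with no overlap and a log2 fold change of 1.09 (SE 0.14, adjusted p = 1.25e-05, limma). Sdhc and Sdhb were higher as well, by 0.83 (SE 0.24, adjusted p = 0.0168, limma) and 0.57 (SE 0.16, adjusted p = 0.0157, limma). In complex IV, Cox7b measured 1774, 1663 and 1245 in SP2Minus and 3190, 2699 and 3617 in TH2Minus, and was higher by 1.03 (SE 0.22, adjusted p = 0.00179, limma). Ndufs5, a membrane arm subunit, measured 404, 247 and 233 against 619, 488 and 696, and Ndufa12 measured 375, 321 and 319 against 555, 636 and 808. In both cases all thymic samples were above all splenic ones, with log2 fold changes of 1.06 (SE 0.28, adjusted p = 0.00989, limma) and 0.96 (SE 0.21, adjusted p = 0.00241, limma). In complex V, Atp5g3 measured 2198, 1460 and 1739 in SP2Minus and 3175, 3404 and 4019 in TH2Minus, again without overlap, and was higher by 0.99 (SE 0.20, adjusted p = 0.00119, limma). Uqcrb, a complex III subunit with 3 near-identical copies in the genome, was higher by 1.02 (SE 0.28, adjusted p = 0.0137, limma), a call lost without SP2Minus replicate 3 (adjusted p = 0.107). Atp5k, a membrane subunit of complex V, was higher by 1.02 (SE 0.38, adjusted p = 0.0657, limma), lost in 3 of 6 fits that left out 1 sample, with adjusted p up to 0.337.

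In cDC1, 5 subunits were higher in the thymus and 0 lower, at 7.72% and 7.7% of all genes (15.4% called), and the median was 0.28 over the subunits. These were Ndufa9 (0.43), Ndufs5 (0.69), Sdhb (0.44), Sdhd (0.34) and the low Cox6a2 (1.62), and each of the 5 lost its call in at least 1 fit that left out 1 sample. Without TH1Minus replicate 3, 0 of the 89 genes were called by limma and 4 had an unadjusted p below 0.05, against 12 with all samples. By edgeR and DESeq2, on the whole reads recovered from the normalized values, 5 and 7 of the 89 genes were called with all samples. The difference between the subsets was tested directly. It was called for Sdhd alone, at 0.75 (SE 0.19, adjusted p = 0.0224, limma), where 6.25% of all genes were called (3.96% higher and 2.29% lower), and this call held in each of the 14 fits that left out 1 sample. For the other 88 genes the larger number of calls in cDC2 was not matched by a called difference.

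**Figure D4:**
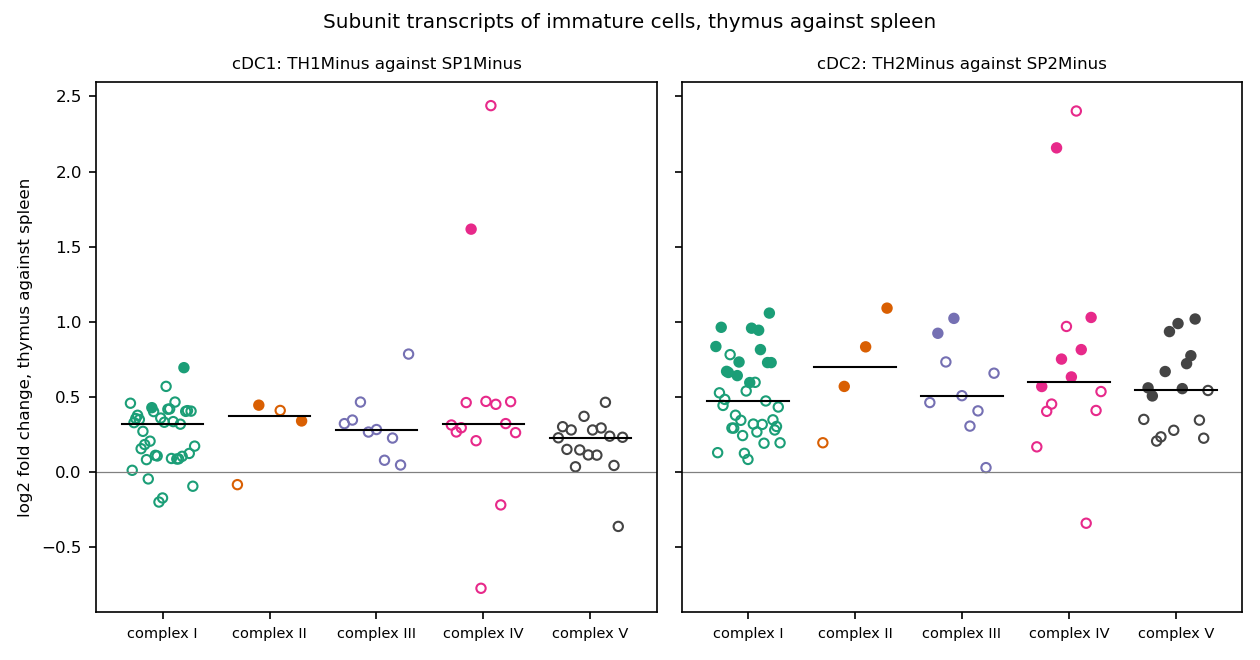
Log2 fold change (y axis) of immature thymic against splenic cells for each of the 80 tested subunits by complex (x axis), in cDC1 (left) and cDC2 (right); filled points were called at an adjusted p below 0.1, and black lines are medians. In cDC2 33 subunits are filled, all above 0, and in cDC1 5 are filled.

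Here too other lists moved with the tissue. Of all genes tested, 14.9% were higher and 11.6% lower in the thymus in cDC2, and 7.72% and 7.7% in cDC1. Of the mitochondrial ribosomal proteins, 26 of 74 were higher in thymic cDC2 than in splenic cDC2 and 0 lower, and in cDC1 0 were called by limma, with 8 at an unadjusted p below 0.05. Cycs was higher in the thymus by 1.20 (SE 0.26, adjusted p = 0.00204, limma) in cDC2 and by 0.77 (SE 0.22, adjusted p = 0.0248, limma) in cDC1. Of the 13 mitochondrially encoded subunits 0 were called by limma in either subset, and 0 in cDC1 and 1 in cDC2 had an unadjusted p below 0.05. Of 12 genes of dividing cells, 5 were higher in the thymus in each subset, with summed values of 28979 to 33536 in SP2Minus and 44794 to 47555 in TH2Minus. In cDC2, 3 of 5 tested macrophage markers were higher in the thymus, with summed values of 877 to 1450 in SP2Minus and 4849 to 7942 in TH2Minus, and all 4 thymic epithelial markers, with 84.7 to 152, Foxn1 at 0 in each splenic sample, and 3480 to 3805. All 3 tested pDC markers were higher in thymic cDC2 as well, at 188 to 313 in SP2Minus and 1314 to 1808 in TH2Minus, as were 4 of 7 T lineage markers, at 29.4 to 76.9 and 194 to 285. The part of these lists in the difference was not tested.

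The cDC subsets were then compared within each site. In the spleen, 19 of 80 subunits were lower in cDC2 than in cDC1 and 0 higher, whereas 13.4% of all genes were lower and 16% higher (29.4% called). The median log2 fold change was -0.37 over the subunits and 0.02 over all genes. The splenic cDC2 samples are the same as in the tissue comparison, so that these are not independent results. Sdhd measured 2016, 1717, 1903 and 2010 in SP1Minus and 1337, 1075 and 1066 in SP2Minus, and Ndufa12 measured 621, 652, 754 and 723 in SP1Minus and 375, 321 and 319 in SP2Minus. For both the subsets were separate, at -0.73 (SE 0.13, adjusted p = 0.000306, limma) and -1.02 (SE 0.20, adjusted p = 0.000503, limma). Atp5g3 and Cox7b were lower by 0.94 (SE 0.19, adjusted p = 0.000666, limma) and 0.85 (SE 0.20, adjusted p = 0.00338, limma). Of the 19 subunits, 12 were called in every fit that left out 1 sample. With a correction for GC content and length, 38 of the 89 genes were called in the spleen (2 higher, 36 lower), against 22 without it (2 higher, 20 lower). Among the assembly factors, Ndufaf6 was lower in splenic cDC2, at -1.46 (SE 0.39, adjusted p = 0.00833, limma), and Atp5sl higher, at 0.84 (SE 0.20, adjusted p = 0.00366, limma). All 3 tested pDC markers were lower in splenic cDC2, with summed values of 998 to 1366 in SP1Minus and 188 to 313 in SP2Minus, and all 5 tested macrophage markers were higher, with 27.8 to 204 and 877 to 1450. The part of these markers in the splenic difference was not tested.

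In immature cells of the thymus, where 15.5% of all genes were higher in cDC2 and 10.5% lower (26% called), few subunits differed between the subsets. Cox6b2 was higher in cDC2 by 2.80 (SE 0.61, adjusted p = 0.0017, limma), and Sdhb, Uqcrc2 and Cox7c were called lower, by 0.40, 0.32 and 0.59, but each of these 3 calls was lost without TH1Minus replicate 3 (adjusted p = 0.2, 0.194 and 0.225). Of the assembly factors, Ndufaf7 was higher by 0.59 (SE 0.18, adjusted p = 0.025, limma) and Ndufaf6 lower by 1.22 on the log2 scale (SE 0.39, adjusted p = 0.0282, limma), the latter lost without TH2Minus replicate 2 (adjusted p = 0.105). With a correction for GC content and length, 21 of the 89 genes were called here (1 higher, 20 lower), against 6 without it (2 higher, 4 lower). In mature cells, 10 of 80 subunits were higher in cDC2 and 1 lower, against 21% and 9.27% of all genes (30.3% called). Cox6b2 measured 35.0, 1.73 and 3.20 in TH1Plus and 92.1, 78.6 and 102 in TH2Plus, a log2 fold change of 3.62 (SE 0.65, adjusted p = 0.000396, limma). Sdhd measured 1429, 1580 and 1691 in TH1Plus and 2431, 2513 and 2380 in TH2Plus, a log2 fold change of 0.64 (SE 0.14, adjusted p = 0.00253, limma). The subunit that was lower was Ndufv2, at -0.69 (SE 0.18, adjusted p = 0.00842, limma). Sdhd, Cox6b2 and Ndufv2 were separate between the groups and were called in every fit that left out 1 sample, which held for none of the other 8 subunits. Of the 89 genes, 12 were called in mature cells (11 higher in cDC2, 1 lower), but the split was 7 higher and 3 lower when rescaled by the upper quartile, and 6 higher and 20 lower with a correction for GC content and length. Macrophage markers summed to 79.7 to 445 in TH1Plus and to 1657 to 13674 in TH2Plus, and their part in these differences was not tested.

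Finally, the maturation effects of the subsets were compared directly. The difference was called for 7 of 80 subunits, 6 with a higher value in cDC2 and 1 with a lower value, against 18.5% of all genes (11.2% higher, 7.3% lower). The split was 5 and 2 when rescaled by the upper quartile. These were Sdhd and Ndufv2, given above, and Ndufs6 (1.05, SE 0.36, adjusted p = 0.0648, limma), Atp5g2 (1.00, SE 0.38, adjusted p = 0.0947, limma), Uqcrfs1 (0.68, SE 0.25, adjusted p = 0.0775, limma), Cox7a2l (0.58, SE 0.21, adjusted p = 0.0802, limma) and Uqcrc2 (0.51, SE 0.18, adjusted p = 0.0649, limma). Each of the last 5 lost its call in at least 6 of the 13 fits that left out 1 sample, among them that without TH1Minus replicate 3, where adjusted p was 0.119, 0.173, 0.136, 0.136 and 0.107.

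Calls that also exceeded a 2-fold change were fewer. In the maturation comparisons they were 27 of 89 in cDC1 (45.7% of all genes) and 10 in cDC2 (35.6%). Between thymus and spleen they were 1 in cDC1 (8.77%) and 6 in cDC2 (14.2%). Between the subsets they were 2 in the spleen (16.6%), 2 in immature (16.4%) and 2 in mature (18.9%) thymic cells. For the differences between effects they were 2 (13.6%) for maturation, Ndufs6 and Atp5g2, and 0 (4.98%) for tissue, where limma gave an unadjusted p below 0.05 for 7 genes and edgeR and DESeq2 also gave 0 calls past 2-fold.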

How the data were processed

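Poly(A) RNA of FACS-sorted cDCs was sequenced as 21 libraries in 6 groups. Per the labels and the study's methods, the authors used Cutadapt for trimming, STAR 2.6 for alignment (build mm10), HTSeq-count for counting on Ensembl genes and DESeq2 1.24.0 for normalization. The deposited values are therefore a signal, read counts that the authors divided by 1 size factor per library. The strand setting and annotation release are not given in the sources used here. Values divided by the worth of 1 read gave whole reads (tolerance 0.01 of a read), 14266867 to 40119669 per library with a median of 24768633.

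SP1Minus replicates 4 and 5 differed by far less than other pairs (chi-square per degree of freedom 2.44, against 25.0 to 176 for the 9 other pairs of that group) and were averaged as 1 sample, which left 20 samples. They shared pool number, index and lane in their labels. TH1Minus replicates 3 and 4 shared these too, but differed the most of their group (92.8, against 22.8 to 86.1 for its other pairs) and were kept apart. Genes with a normalized read count of 10 or more in 3 or more samples were kept (14970). All groups were fitted together with limma 3.58.1 (trend, R 4.3.3) on log2(value + 1), so that fold changes of low genes are understated. P-values are two-sided with Benjamini-Hochberg adjustment over all genes kept, and the call was an adjusted p below 0.1, the study's cutoff. No covariate was used. By the labels, all mature libraries were on lane 8, while each immature group held libraries of lanes 5 and 8. Lane was thus unbalanced in the maturation comparisons and its part was not separated in the main fit. SP1Minus and SP2Minus carried the same pool numbers, as did TH1Minus and TH2Minus, and this pairing was not used in the main fit. Alternatives were edgeR 4.0.16 and DESeq2 1.42.0 on the recovered reads, other scalings, pseudocounts and filters, lane, pool, a correction for GC content and length, and leaving out each sample in turn. The fit was tested on simulated data.

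Genes given with full statistics were up to 8 per comparison with the largest called change over 2-fold and a mean of at least 100, fixed core subunits, isoform pairs, and each count of 5 or fewer. From other lists, genes with the largest changes and a mean of at least 100 were named, leaving out genes that are not reported here, with Nrf1, Gabpb1, Cycs, Etfdh and Gpd2 chosen after their values were seen. The members and lists were chosen with earlier results of these data known. Of the members, 29 overlap an exon of another gene on the other strand and 5 on the same strand, and 11 of 93 have near-identical copies elsewhere (95% identity over 50% of the transcript).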

Additional observations from a re-analysis of the deposited data

Results flagged for a closer look

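In the groups of 4 samples, 6 values of single genes lay apart from the other 3 samples by Dixon's criterion. Chance meets this criterion in about 1 in 20 groups. The number of genes examined is not given here. The count of 6 can therefore not be compared with chance and is no result about these genes. In SP1Minus, replicate 3 was the highest for Atp5a1 (12855) and Atp5b (21841) and the lowest for Ndufaf4 (211.49). In TH1Minus, replicate 3 was the highest for Atp5k (2776), Ndufa9 (3008.5) and Sdhd (2978.8).

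The effect of maturation differed between the subsets for 7 subunits by limma. The difference, as cDC2 minus cDC1 on the log2 scale, was 1.05 for Ndufs6, 1.00 for Atp5g2, 0.68 for Uqcrfs1, 0.62 for Sdhd, 0.58 for Cox7a2l, 0.51 for Uqcrc2 and -0.91 for Ndufv2. The difference between thymus and spleen differed between the subsets for Sdhd, by 0.75.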

How the results depend on the processing

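All counts here are of the 89 respiratory chain genes tested. Leaving out 1 sample at a time, the calls ranged from 44 to 63 for maturation in cDC1 and from 28 to 37 in cDC2, from 0 to 8 between thymus and spleen in cDC1 and from 17 to 37 in cDC2, from 15 to 33 between the splenic subsets, from 3 to 8 between the immature and from 6 to 19 between the mature thymic subsets, from 1 to 11 for the difference of the maturation effects and from 1 to 5 for that of the tissue effects. The median of complex III ranged from -0.45 to 0.11 for maturation in cDC2 and from -0.61 to -0.18 between the splenic subsets. Past 2-fold as well, the counts were 27, 10, 1, 6, 2, 2, 2, 2 and 0 in that order.

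Between thymus and spleen in cDC1, the 5 calls became 1 at an adjusted p below 0.05, without the filter or with lane as a covariate, 3 when rescaled to the nuclear-encoded total or by the upper quartile or when fitted on the compared groups only, 12 with the GC content and length correction, and 0 with 1 sample per pool or on lane 8 only, where 10 and 5 had an unadjusted p below 0.05 by limma. In that correction the splenic subsets gave 38 calls, the immature thymic subsets 21 and the mature ones 26. The immature thymic subsets gave 3 at an adjusted p below 0.05, 10 by the upper quartile and 1 on lane 8, and the mature ones 5 when fitted alone. For the difference of maturation effects there were 2 at an adjusted p below 0.05, 4 without the filter and 0 on lane 8 (7 at an unadjusted p below 0.05). For the difference of tissue effects there were 2 by DESeq2 or when fitted alone, 3 by the nuclear-encoded total or with 21 libraries kept apart, and 0 on lane 8 (7 at an unadjusted p below 0.05).

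Rescaled to the nuclear-encoded total, the median for maturation in cDC1 was -1.05 for complex II, -0.88 for complex III and -0.74 for complex V, and in cDC2 -0.79, -0.65 and -0.50. By the upper quartile complex II had -0.57 in cDC1. On lane 8 complex V had -0.78 between the splenic subsets. The nuclear-encoded total gave sums of 24800 (complex I), 6625 (complex II), 15098 (complex III), 31493 (complex IV) and 41597 (complex V) in TH1Plus, 7641 (complex II) and 17554 (complex III) in TH2Plus, and for complex II 10531 in SP1Minus and 12494 in TH2Minus. With the GC content and length correction the median of complex II between thymic and splenic cDC2 was 0.50. In mature cells the same correction turned Atp5a1 to -0.31, Atp5b to -0.34 and Atp5c1 to -0.31 in cDC2 against cDC1. The cause of these shifts was not tested.

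Samples of the same pool number correlated from -0.15 to 0.46 and samples of different pool numbers from -0.49 to 0.26. The ranges overlapped, the highest value being that of a shared pool number, and the main fit did not pair the samples. With the pool as a random replicate block (correlation 0.155), the difference of the tissue effects had 2 calls, and 2 with the GC content and length correction as well. With that correction and the block there were 12 calls between thymus and spleen in cDC1, 38 between the splenic, 21 between the immature and 26 between the mature thymic subsets, a complex II median of 0.50 in cDC2 between the tissues, and values of -0.31 for Atp5a1, -0.33 for Atp5b and -0.30 for Atp5c1. Other counts stayed within 1.5 times their value under the block.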
